A study of Mus musculus with 6 samples.

Results

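The lipid-associated macrophage program is a set of genes that macrophages switch on when they take up and break down lipid-rich debris. It was measured here by 10 genes, chosen by symbol from the 49568 gene symbols of the deposited count table: Trem2, Spp1, Gpnmb, Fabp5, Cd9, Cd63, Lgals3, Lpl, Apoe and Tyrobp. All 10 were present and all 10 passed the filter on low counts. Poly(A) RNA of the whole lung was sequenced from 3 TNF-Tg and 3 WT female mice at 4 months of age, 1 library per mouse. TNF-Tg mice carry a human TNF-α transgene and develop inflammatory-erosive arthritis and pulmonary vascular disease, and the WT mice were their littermates without it, both on the same inbred background and without treatment. The transgene is inherited in the germ line and the lungs were not sorted, so RNA of all lung cell types was counted, although the labels give the cell type as primary cells. The promoter of the transgene is not given in the sources used here.

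TREM2 is a receptor on the macrophage surface that binds lipids, lipoproteins and apoptotic cells, and it signals through the adaptor TYROBP (DAP12). Cells with active TREM2 turn on genes for lipoprotein binding (Apoe), triglyceride hydrolysis (Lpl), fatty acid transport (Fabp5), lysosomal and membrane proteins (Gpnmb, Cd63, Cd9, Lgals3) and the secreted matrix protein osteopontin (Spp1). Macrophages of this kind are known from obese adipose tissue, atherosclerotic plaque, fibrotic lung and degenerating brain. Several of these genes are also active in other cells, for example Cd9 and Cd63 in epithelium, endothelium and platelets, and Lpl in fat and heart muscle.

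Of the 10 genes, 8 were higher in TNF-Tg than in WT lungs at an adjusted p of 0.05 (quasi-likelihood test of edgeR, Benjamini-Hochberg over 19199 tested genes), and none was lower. Among all tested genes, 24.0% were called higher, 23.4% lower and 47.4% in either direction. All 8 also had a log2 fold change of at least 1, and 10.3% of all tested genes were called higher with such a change. Gpnmb and Trem2 rose most, by 45.3-fold and 30.4-fold. Tyrobp, Lgals3, Apoe and Fabp5 rose between 4.72-fold and 7.20-fold, and Cd63 and Lpl by 2.33-fold and 2.22-fold. Spp1 and Cd9, which often define such macrophages, did not pass the test. The median log2 fold change of the 10 genes was 2.26, beside 0.03 over all genes tested. For the 8 genes every TNF-Tg lung lay above every WT lung, which was the case for 30.5% of all tested genes, while 58.7% separated in either direction. In bulk lung RNA fewer cells of a type and less RNA per cell cannot be told apart.

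To show the regulatory sequence of the genes that rose most and of those that did not pass the test, the 250 bases before the transcription start were taken from RefSeq promoters of the build GRCm38.p6, which held an entry for 7 of the 10 genes. Capitals mark matches on either strand to GAGGAA (the PU box, bound by the myeloid factor PU.1), CACGTG (the E-box, bound by the lysosomal regulators TFEB, TFE3 and MITF), CATGTG (the core of the M-box of MITF), TGAGTCA (AP-1) or TATAAA (the TATA box). The first 2 sequences belong to the genes with the largest rise, the last 2 to the genes that did not pass the test.
Trem2 (chr17:48346151-48346400, plus strand): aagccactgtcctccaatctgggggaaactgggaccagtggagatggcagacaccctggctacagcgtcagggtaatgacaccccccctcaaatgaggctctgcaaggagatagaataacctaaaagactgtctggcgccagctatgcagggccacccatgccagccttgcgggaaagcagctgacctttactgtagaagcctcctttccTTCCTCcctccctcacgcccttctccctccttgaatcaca
Gpnmb (chr6:49036268-49036517, plus strand): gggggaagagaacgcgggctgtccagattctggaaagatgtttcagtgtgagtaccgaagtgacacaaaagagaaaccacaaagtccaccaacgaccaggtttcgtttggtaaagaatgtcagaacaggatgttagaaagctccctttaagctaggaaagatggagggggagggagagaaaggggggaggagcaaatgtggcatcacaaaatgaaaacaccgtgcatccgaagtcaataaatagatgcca
Spp1 (chr5:104434861-104435110, plus strand): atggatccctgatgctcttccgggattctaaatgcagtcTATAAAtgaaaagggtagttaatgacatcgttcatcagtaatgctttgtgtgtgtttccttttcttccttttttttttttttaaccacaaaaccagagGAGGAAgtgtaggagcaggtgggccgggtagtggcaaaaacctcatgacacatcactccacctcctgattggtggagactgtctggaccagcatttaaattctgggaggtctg
Cd9 (chr6:125494761-125495010, minus strand): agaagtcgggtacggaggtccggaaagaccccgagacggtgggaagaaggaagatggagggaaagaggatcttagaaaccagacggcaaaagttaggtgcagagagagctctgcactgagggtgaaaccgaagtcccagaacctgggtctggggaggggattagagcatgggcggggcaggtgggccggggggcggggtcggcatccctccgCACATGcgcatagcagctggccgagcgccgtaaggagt
The Trem2 window held a PU box 40 bases before the start, and the Spp1 window held 1 at 113 bases and a TATA box at 211 bases before it. The Cd9 window held an M-box core 38 bases before the start. The Gpnmb window before the start held none of the 5 motifs, and an AP-1 match lay 8 bases after it. None of the 10 windows of the 7 genes held CACGTG. Over all 32851 promoter windows of the table, including the bases just after the start, 28.3% held GAGGAA, 14.2% CATGTG, 13.6% TATAAA, 7.15% CACGTG and 5.20% TGAGTCA, so the matches are a description of the sequence and name no factor at work.

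The total counts per lung were 25396923 to 30049463 in TNF-Tg and 31400978 to 32529408 in WT mice, and levels are given as normalized counts, that is, counts scaled to the mean of the library sizes after TMM adjustment in edgeR. A gene with 3 counts, taken as the limit of detection, stood at 0.0922 to 0.118 CPM, the count scaled to a library of 1e6. The lowest count of any of the 10 genes was 81, for Trem2 in a WT lung. The mouse Tnf gene had 140, 220 and 382 normalized counts in TNF-Tg lungs against 15.3, 13.4 and 31.1 in WT lungs (log2 fold change, here log2FC, 3.62, with its standard error, SE, 0.46, adjusted p = 0.000471). Reads of the human transgene that also map to the mouse gene and reads of the mouse gene cannot be told apart in the table. A pair of libraries stood apart. In replicate 1 of TNF-Tg, the gene Gm42418 took 5.22% of all counts, against at most 0.274% in the other lungs. In replicate 1 of WT, 6 squamous epithelium markers summed to 105701 normalized counts against at most 132 in every other lung, and 5 skeletal muscle markers summed to 44243 against at most 1108. Without both of these lungs the same 8 genes were called higher.

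**Figure D1:**
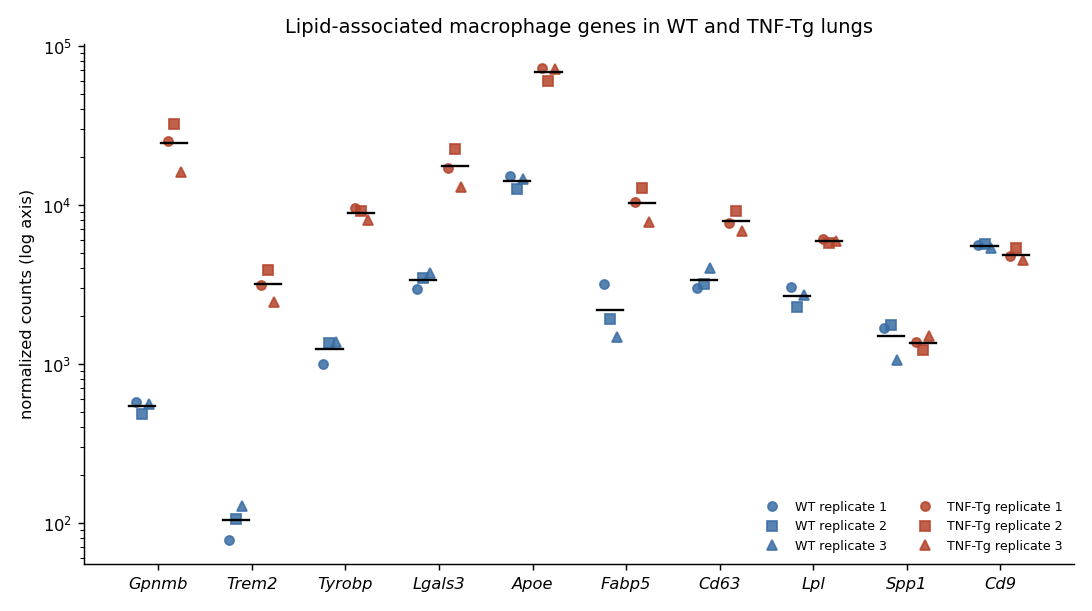
Normalized counts (log axis) of the 10 genes in 3 WT lungs (blue) and 3 TNF-Tg lungs (red), 1 point per lung with a marker shape per replicate and a black bar at each group's mean. From Gpnmb to Lpl every TNF-Tg lung lies above every WT lung, while the lungs of both genotypes overlap for Spp1, and for Cd9 the TNF-Tg lungs lie just under the WT lungs.

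The receptor and its adaptor were both higher in TNF-Tg lungs. Trem2 (ENSMUSG00000023992.14, chromosome 17, 48346401 to 48354147, plus strand, GENCODE M21 on mm10) had 2355, 3772 and 2596 counts in the TNF-Tg lungs and 81, 110 and 143 in the WT lungs. The lowest TNF-Tg lung was 19.3 times the highest WT lung in normalized counts. The WT mean was 103 ± 24.9 (SD, n = 3) and the TNF-Tg mean 3152 ± 726 (SD, n = 3) normalized counts, which gave a log2FC of 4.93 (SE 0.24, adjusted p = 5.8e-06 by edgeR).
Tyrobp (ENSMUSG00000030579.10, chromosome 7, 30413760 to 30417585, plus strand) encodes the short membrane adaptor that carries the signal of TREM2 and of several other myeloid receptors. It had 9587, 9131 and 8039 normalized counts in TNF-Tg and 1001, 1352 and 1360 in WT lungs. The TNF-Tg lungs were close to each other and stood apart from the WT lungs (log2FC 2.85, SE 0.15, adjusted p = 8.38e-06 by edgeR).
Receptor and adaptor thus rose by different amounts. Per length of exon (RPKM, the CPM divided by the exon length in kilobases), the level of Tyrobp was 95.9, 95.1 and 79.3 times that of Trem2 in the WT lungs and 22.9, 17.4 and 24.3 times in the TNF-Tg lungs. This ratio was computed after the values were seen and was not tested. Its size depends on the exon lengths used, 667 bases for Tyrobp and 4946 for Trem2, which are the same in both genotypes.
TREM2 and TYROBP pass their signal to the kinase SYK and to phospholipase C gamma 2, and the receptor is cut from the surface by ADAM10 and ADAM17. Of 8 genes of this signalling and shedding list, 7 were higher and none was lower. Adam17 had 3510, 2791 and 3149 normalized counts in TNF-Tg lungs against 1240, 1041 and 1032 in WT lungs (log2FC 1.51, SE 0.12). The sister adaptor gene Hcst (DAP10) rose most (1.84, SE 0.25) and Adam10 least among the called genes (0.58, SE 0.11), with Syk at 1.37 and Plcg2 at 1.20. Vav3 had a log2FC of -0.17 (adjusted p = 0.53 by edgeR).
Other receptors that use TYROBP were also measured. Of 8 genes 7 were tested, of which 6 were higher. Clec5a, a lectin receptor of monocytes and macrophages, had 812, 745 and 795 normalized counts in TNF-Tg lungs against 31.5, 33.5 and 80.0 in WT lungs (log2FC 4.01, SE 0.34), and Trem3 had the smallest called rise (1.63, SE 0.39). Siglech, a receptor of plasmacytoid dendritic cells, did not pass the test (0.47, adjusted p = 0.241 by edgeR), and Siglec15 was not tested for low counts.

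Gpnmb (ENSMUSG00000029816.10, chromosome 6, 49036546 to 49070929, plus strand) encodes a transmembrane glycoprotein of the lysosome and melanosome. It had 19036, 30963 and 16949 counts in TNF-Tg lungs and 597, 505 and 629 in WT lungs. The WT lungs were nearly alike, with a coefficient of variation of 8.73%, while the highest TNF-Tg lung was 2.00 times the lowest. The lowest TNF-Tg lung still was 28.0 times the highest WT lung, and the log2FC of 5.50 (SE 0.28, adjusted p = 6.69e-06 by edgeR) was exceeded by 0.469% of tested genes. Melanocytes also make Gpnmb. The 4 melanocyte markers together had 91.0 to 159 normalized counts in TNF-Tg and 48.9 to 70.7 in WT lungs, with Tyr at or under 3.10 and Dct at or under 6.71 in every lung. Of the 2 markers that were tested, Mlana was higher (1.51) and Pmel was not called, and the part of such cells in the level of Gpnmb was not tested.
Cd63 (ENSMUSG00000025351.14, chromosome 10, 128900989 to 128912822, plus strand) encodes a tetraspanin of late endosomes and lysosomes. Its normalized counts were 7727, 9119 and 6827 in TNF-Tg lungs and 2983, 3184 and 3987 in WT lungs. The groups did not overlap, and the rise was moderate (log2FC 1.22, SE 0.15, adjusted p = 0.000432 by edgeR). Of its 100-base windows, 4.81% also occur in the pseudogene Cd63-ps.
Lgals3 (ENSMUSG00000050335.17, chromosome 14, 47367751 to 47386160, plus strand) encodes galectin-3, a sugar-binding protein that marks damaged lysosomes and is secreted by macrophages. It had 17004, 22602 and 12958 normalized counts in TNF-Tg lungs and 2948, 3481 and 3704 in WT lungs. All TNF-Tg lungs were higher, with a wide spread among them (log2FC 2.38, SE 0.21, adjusted p = 7.3e-05 by edgeR).
Cd9 (ENSMUSG00000030342.8, chromosome 6, 125460266 to 125494791, minus strand), a tetraspanin of the plasma membrane, had 4753, 5344 and 4489 normalized counts in TNF-Tg lungs and 5594, 5639 and 5351 in WT lungs. The TNF-Tg lungs all lay under the WT lungs by a small margin, and the log2FC of -0.19 (SE 0.10) did not pass the test (adjusted p = 0.169 by edgeR). Antisense genes lie over part of Cd9, and the strand setting of the counting is not given in the sources used here.
Of 5 other tetraspanins, 4 were higher and 1 was lower. The leukocyte tetraspanin Cd53 rose most (log2FC 2.07, SE 0.13), followed by Cd37 at 1.65, and Cd151, a tetraspanin of epithelium and endothelium, fell by 0.47 on the log2 scale. Of 5 other galectins, Lgals1 (0.80) and Lgals8 (0.35) were higher and Lgals12, a galectin of fat cells, was lower (-1.83).

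Cd9 and Cd63 are also made by several lung cells other than macrophages, and many markers of these cells were lower in TNF-Tg lungs, where Cd63 was higher and Cd9 lay slightly under the WT lungs. Normalized counts summed over 4 endothelial markers were 32967 to 39211 in TNF-Tg and 60743 to 75828 in WT lungs, and all 4 genes were called lower. Over 5 platelet markers the sums were 2290 to 2900 against 4065 to 5499, with 4 genes lower and Pf4, which macrophages can also make, higher. Over 6 alveolar type 2 cell markers the sums were 470220 to 602146 against 671761 to 809032, with 2 genes lower and 4 not called. Over 4 fibroblast markers they were 24623 to 25750 against 33608 to 52887 (3 lower), and over 3 Schwann cell markers 98.2 to 123 against 214 to 313 (3 lower). Among the genes called lower, Gp1ba of the platelet and Sox10 of the Schwann cell markers passed the filter on low counts only through the WT lungs. Over all tested genes 23.4% were called lower. The part of these cells in the values of Cd9 and Cd63 was not tested.

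Among the lipid handling genes of the 10, Apoe was the most abundant. Apoe (ENSMUSG00000002985.16, chromosome 7, 19696109 to 19699188, minus strand) encodes the apolipoprotein that binds lipoproteins to cell receptors and takes up cholesterol leaving the macrophage. Its normalized counts were 72980, 59695 and 71680 in TNF-Tg lungs and 15068, 12603 and 14573 in WT lungs. Both groups were tight, with coefficients of variation of 10.8% and 9.26%, and the log2FC was 2.27 (SE 0.15, adjusted p = 2.15e-05 by edgeR).
Lpl (ENSMUSG00000015568.16, chromosome 8, 68880491 to 68907448, plus strand) encodes lipoprotein lipase, which frees fatty acids from circulating triglycerides. It had 6082, 5729 and 5916 normalized counts in TNF-Tg lungs and 3026, 2269 and 2692 in WT lungs. The TNF-Tg lungs differed least of all 10 genes, with a coefficient of variation of 2.99%, and the log2FC was 1.15 (SE 0.12, adjusted p = 0.00018 by edgeR). Fat and heart muscle, which also make Lpl, had lower marker levels in TNF-Tg lungs. Over 5 cardiac muscle markers the sums were 8696 to 10884 normalized counts in TNF-Tg against 32082 to 41321 in WT lungs, with all 5 called lower. Over 5 adipocyte markers they were 114 to 1016 against 1091 to 2121, with 2 of 4 tested genes lower, of which Pck1 passed the filter on low counts only through the WT lungs.
Fabp5 (ENSMUSG00000027533.10, chromosome 3, 10012548 to 10016607, plus strand) encodes a fatty acid binding protein of macrophages and of squamous epithelium. Its normalized counts were 10385, 12755 and 7841 in TNF-Tg lungs and 3186, 1907 and 1466 in WT lungs. The WT lung with the highest value, replicate 1, was the one with the squamous markers. With all lungs the log2FC was 2.24 (SE 0.30, adjusted p = 0.000597 by edgeR), and without that lung it was 2.59 (adjusted p = 0.000185 by edgeR). Sequence of 2 pseudogenes matched 2.19% of the 100-base windows of its transcripts.
Of 6 other fatty acid binding protein genes 4 were tested. Fabp7 had 16, 19 and 14 counts in TNF-Tg lungs and 2, 3 and 3 in WT lungs, which are at or under the limit of detection, so it passed the filter on low counts only through the TNF-Tg lungs and no fold is given. Fabp1 (-2.17) and Fabp3 (-1.38) were lower, and Fabp4, the form of fat cells, capillaries and alveolar macrophages, had a log2FC of 0.88 (adjusted p = 0.0547 by edgeR).

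Among the partners of these lipid genes some were higher and some lower, as over all tested genes (24.0% called higher and 23.4% lower). Of 12 genes for lipid uptake, storage and efflux, 6 were higher, 1 was lower and 5 did not pass the test. The scavenger receptor Msr1 had 1171, 1176 and 1119 normalized counts in TNF-Tg lungs against 49.7, 37.4 and 55.1 in WT lungs (log2FC 4.60, SE 0.16). The scavenger receptor Cd36, which capillary endothelium also makes, had 3664, 3310 and 3210 against 14601, 12348 and 11344 (log2FC -1.91, SE 0.13). The lysosomal acid lipase gene Lipa (1.95) and the cholesterol exporter gene Abca1 (1.68) were higher, as were the liver X receptor gene Nr1h3 (0.75) and the cholesterol esterifying Soat1 (0.69). Npc2, a cholesterol carrier of the lysosome, had the smallest called rise (0.43, adjusted p = 0.0464 by edgeR). The lipid droplet gene Plin2 had 4152, 6837 and 3244 normalized counts in TNF-Tg lungs against 3262, 3356 and 2837, and did not pass the test (0.59, adjusted p = 0.0807 by edgeR), and Pparg had a log2FC of 0.00.
For lipoprotein lipase, Gpihbp1, which holds the enzyme on the capillary wall, was lower (log2FC -1.44, SE 0.14), while the maturation factors Lmf1 (0.04) and Sel1l (-0.06) and the inhibitor Angptl4 (-1.38, adjusted p = 0.0586 by edgeR) did not pass the test. Apoc2 and Apoa5 were not tested for low counts.
Of 4 receptors of apolipoprotein E, Lrp8 (2.68, SE 0.21) was higher, Vldlr (-0.77) and Sorl1 (-0.59) were lower, and Lrp1 had a log2FC of -0.10 (adjusted p = 0.602 by edgeR).

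Spp1 (ENSMUSG00000029304.14, chromosome 5, 104435118 to 104441050, plus strand) encodes osteopontin, a secreted protein that binds integrins and CD44. Its normalized counts were 1366, 1216 and 1487 in TNF-Tg lungs and 1684, 1754 and 1062 in WT lungs. The WT lungs spread more widely than the TNF-Tg lungs and enclosed them on both sides. The log2FC was -0.14 (SE 0.19, adjusted p = 0.548 by edgeR). Without replicate 3 of WT it was -0.35 with an adjusted p of 0.0401 by edgeR, so that 1 lung decided whether Spp1 was called lower. A predicted transcript on the same strand, Gm42793, overlaps Spp1 and shares 5.85% of its windows. Of 7 osteopontin receptor genes, Itga4 (1.31, SE 0.10) and Cd44 (1.01, SE 0.09) were higher, Itga9 (-0.95) and Itgb3 (-0.90) were lower, and Itgav, Itgb1 and Itgb5 did not pass the test.

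**Figure D2:**
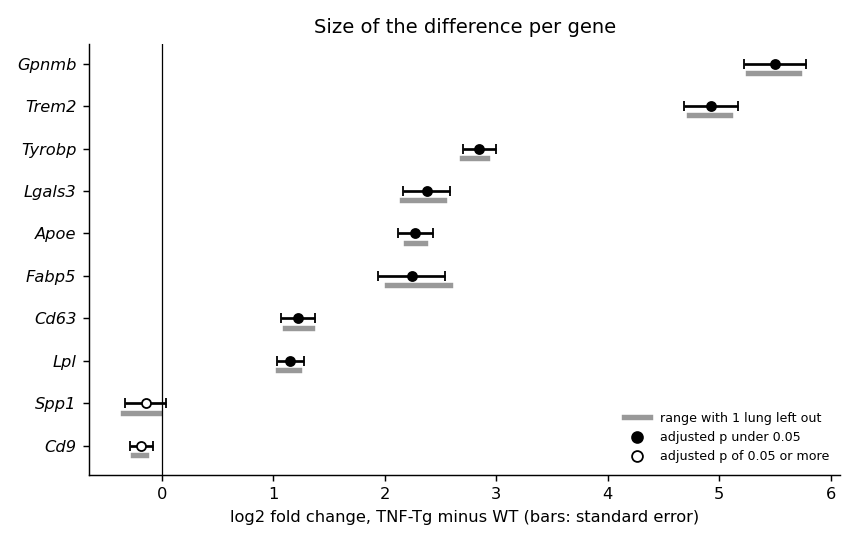
Log2 fold change of TNF-Tg minus WT for each of the 10 genes, with its SE as a bar, filled where the adjusted p was under 0.05, and a grey line for the range when 1 lung was left out. Gpnmb (5.50) and Trem2 (4.93) stand apart from the next gene, Tyrobp (2.85), and Spp1 and Cd9 lie near 0.

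Other genes from published signatures of lipid-associated macrophages were examined in the same fit. Of 16 such genes 14 were higher, 1 was lower and 1 did not pass the test, with a median log2FC of 2.11. Mmp12, the elastase of macrophages, rose most (log2FC 5.71, SE 0.21), from 122, 116 and 164 normalized counts in WT lungs to 6619, 8526 and 5930 in TNF-Tg lungs. The inhibitory receptor Lilrb4a (3.69) and the fungal lectin receptor Clec7a (3.03) followed, and the lysosomal proteases Ctsz (2.38), Ctsd (2.12) and Ctsb (2.10) were all higher. Ctsl had the smallest called rise (0.71). Timp2, a metalloproteinase inhibitor made mainly by fibroblasts, was lower (-0.37, adjusted p = 0.0473 by edgeR), and Vat1 had a log2FC of 0.30 (adjusted p = 0.176 by edgeR).
The MiT/TFE factors regulate lysosomal genes and, in several cell types, Gpnmb. Of 4 genes 3 were higher, with Tfec at 2.48 (SE 0.17), Mitf at 2.00 (SE 0.15) and Tfe3 at 0.76, while Tfeb had a log2FC of 0.24 (adjusted p = 0.0869 by edgeR).
Over all 11 of these lists, 76 of 81 genes were tested, of which 46 were higher, the low-count Fabp7 among them, and 11 lower, with a median log2FC of 0.78. The counts of every list stand beside 24.0% called higher and 23.4% called lower over all tested genes.

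**Figure D3:**
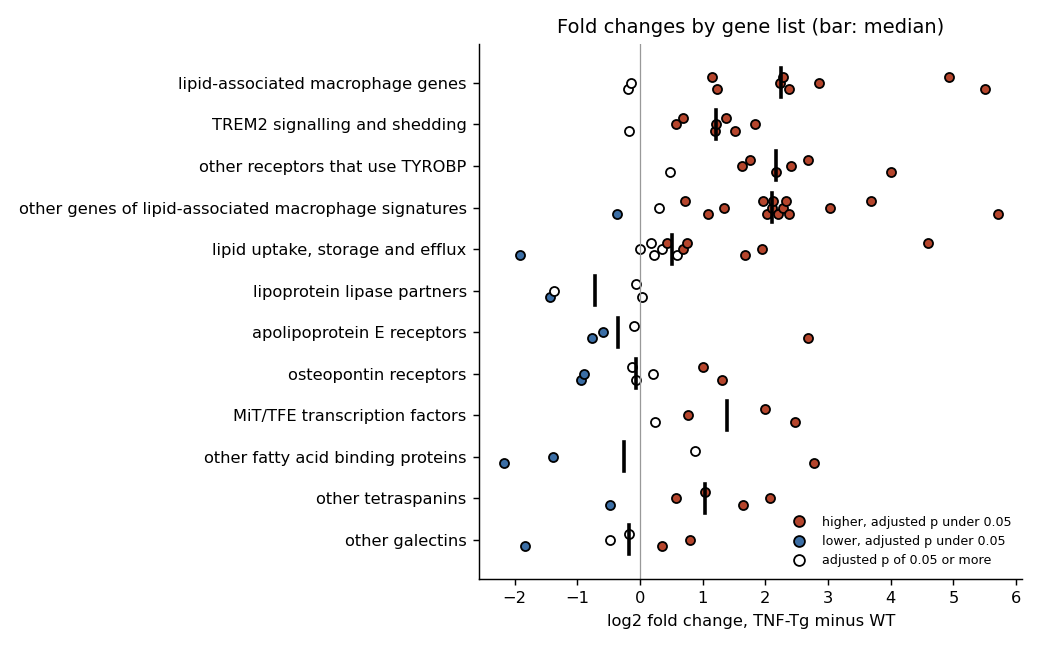
Log2 fold change of TNF-Tg minus WT for every tested gene of 12 lists, 1 point per gene, red if called higher, blue if called lower and white if not called at an adjusted p of 0.05, with a black bar at each list's median. Signature, signalling and TYROBP receptor genes lie mostly to the right of 0, and the lipase partners, apolipoprotein E receptors and osteopontin receptors lie on both sides.

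The make-up of the program differed between genotypes. Normalized counts summed over the 10 genes were 158089, 161513 and 137686 in TNF-Tg lungs and 36138, 32779 and 34880 in WT lungs, a ratio of 4.41 (p = 0.1 in an exact permutation test, two-sided, which cannot give less with 3 lungs against 3). Apoe held 37.0% to 52.1% of the sum in TNF-Tg and 38.4% to 41.8% in WT lungs, and without it the ratio was 4.11. Gpnmb went from 1.48% to 1.60% of the sum in WT to 11.6% to 19.8% in TNF-Tg lungs. Cd9 held 15.3% to 17.2% in WT and 3.01% to 3.31% in TNF-Tg lungs, and Spp1 3.04% to 5.35% and 0.753% to 1.08%.
Per length of exon, Apoe had the highest level in both genotypes, with 1054 ± 113 RPKM (SD, n = 3) in TNF-Tg and 218 ± 20.2 RPKM (SD, n = 3) in WT lungs. In WT lungs Cd9 (89.5 ± 2.51 RPKM, n = 3) came next, then Tyrobp (61.4) and Lgals3 (60.1), whose ranges overlapped. Cd63 (30.4), Spp1 (30.1) and Fabp5 (20.3) followed, with each range overlapping the next. Lpl (8.41), Gpnmb (2.73) and Trem2 (0.691) were lowest, and no range of these 3 overlapped that of its neighbour.
In TNF-Tg lungs Tyrobp (442 ± 39.5 RPKM, n = 3) and Lgals3 (312 ± 86.2 RPKM, n = 3) came after Apoe and overlapped in range. Gpnmb (124), Fabp5 (95.8), Cd9 (78.7) and Cd63 (70.9) followed, each overlapping the next, and Spp1 (27.2), Trem2 (21.1) and Lpl (18.7) were lowest and overlapped likewise. Gpnmb thus moved from below Lpl in WT lungs to above Fabp5 in TNF-Tg lungs, with its range overlapping that of Fabp5. These levels use the union of all annotated exons of a gene as its length, from 667 bases for Tyrobp to 10478 bases for Lpl, and the order with another length was not tested.

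Macrophage genes rose in the same lungs, so each gene was also set beside them. All 5 pan-macrophage markers (Csf1r, Cd68, Adgre1, Mertk and Fcgr1) were called higher, and their sum was 46824 to 57858 normalized counts in TNF-Tg against 8372 to 9084 in WT lungs. They did not rise alike, with log2FCs of 3.33 for Cd68, 3.20 for Adgre1, 2.66 for Csf1r, 1.10 for Fcgr1, whose groups overlapped, and 0.49 for Mertk. Of 4 monocyte markers, 2 were higher (Ccr2 at 1.94 and Ly6c2 at 1.03) and Vcan was lower (-1.48), with sums of 6029 to 7833 against 3115 to 3359. The mean log2 CPM of the 5 macrophage markers was 2.14 higher in TNF-Tg lungs, and this mean was subtracted from the log2 CPM of each gene in each lung.
On this relative scale Gpnmb, Trem2 and Tyrobp remained higher in TNF-Tg lungs without overlap, which was the case for 1.92% of all tested genes. The difference of the means was 3.31 for Gpnmb, 2.77 for Trem2 and 0.72 for Tyrobp on the log2 scale. With 8 interstitial macrophage markers in place of the 5 the differences were 3.07, 2.53 and 0.48, again without overlap. Tyrobp (log2FC 2.85) rose less than the markers Cd68 (3.33) and Adgre1 (3.20), so the size of its relative rise depended on the markers chosen. For Trem2 the relative values were -0.43, -0.02 and -0.62 in TNF-Tg lungs and -3.41, -3.21 and -2.76 in WT lungs, and for Gpnmb they were 2.58, 3.01 and 2.09 against -0.56, -1.04 and -0.64. For Tyrobp they were 1.19, 1.20 and 1.09 against 0.25, 0.44 and 0.64.
Apoe (difference 0.14), Lgals3 (0.21) and Fabp5 (0.15) overlapped between the genotypes, and with 8 interstitial macrophage markers in place of the 5 their differences were -0.10, -0.03 and -0.09. The sign of these differences thus depended on the marker list. For Fabp5 the relative values were 1.31, 1.68 and 1.06 in TNF-Tg lungs and 1.91, 0.94 and 0.75 in WT lungs, with the highest value in replicate 1 of WT, the lung with the squamous markers. Without that lung the difference of Fabp5 was 0.51 and the genotypes did not overlap. It was -0.02 without replicate 2 of TNF-Tg and -0.08 without replicate 3 of WT, with overlap. For Apoe the difference was -0.01 without replicate 2 of WT.
Cd63 (-0.91), Lpl (-0.98), Spp1 (-2.25) and Cd9 (-2.32) were lower relative to the markers, without overlap, as were 92.9% of all tested genes. Each of the 7 separations gave p = 0.1 in the same exact permutation test, its lower limit, or 0.143 after Benjamini-Hochberg adjustment over the 10 genes. Of the 8 interstitial markers 7 were higher, from the complement gene C1qc (4.29) to the mannose receptor gene Mrc1 (1.53), and Lyve1, which is also a gene of lymphatic endothelium, was lower (-3.06).

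**Figure D4:**
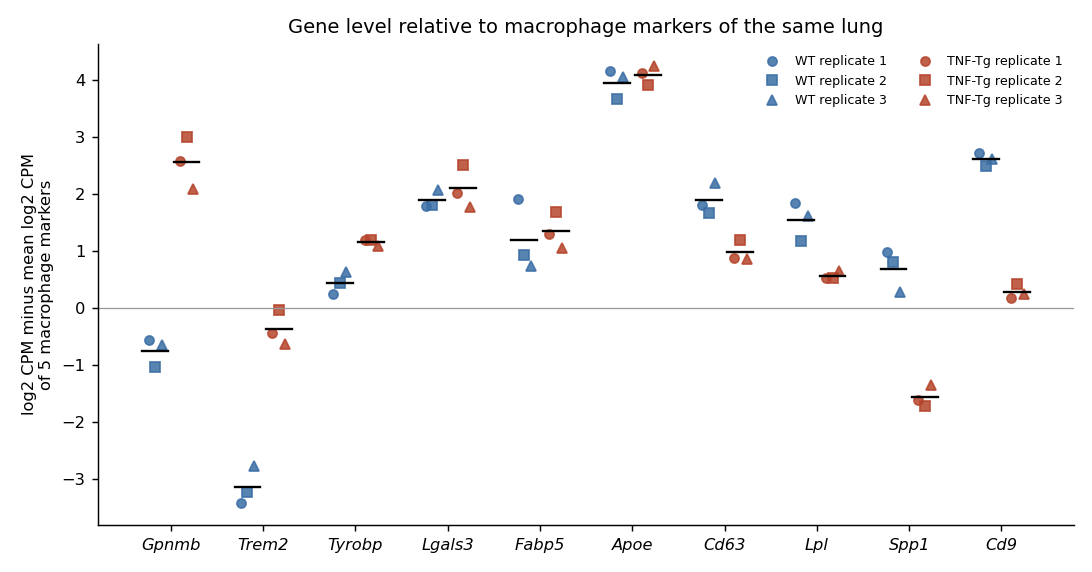
Log2 CPM of each of the 10 genes minus the mean log2 CPM of 5 macrophage markers in the same lung, for 3 WT (blue) and 3 TNF-Tg (red) lungs with a marker shape per replicate and a black bar at each mean. Gpnmb, Trem2 and Tyrobp are higher in all TNF-Tg lungs, Fabp5, Lgals3 and Apoe overlap, and Cd63, Lpl, Spp1 and Cd9 are lower.

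The 3 TNF-Tg lungs did not rank alike for all genes. Replicate 2 had the highest normalized count for 6 of the 10 genes (Trem2, Gpnmb, Fabp5, Cd9, Cd63 and Lgals3), and replicate 3 the lowest for 7, the same 6 and Tyrobp. For Apoe, Lpl and Spp1 replicate 2 was the lowest instead. The widest spread was that of Gpnmb, with a coefficient of variation of 33.0%, followed by Lgals3 at 27.6%, Fabp5 at 23.8% and Trem2 at 23.0%. Marco, a scavenger receptor of alveolar macrophages, was also highest in replicate 2 (95434 normalized counts against 58276 and 49542), and so was Plin2. The other alveolar macrophage markers did not all rank this way. Ear1, Krt79 and Car4 were highest in replicate 2, but Chil3 and Ear2 were lowest there, and Siglecf was highest in replicate 3. None of the 10 genes was lowest in replicate 1, the lung with the high Gm42418 share (0 of 10).

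The genes whose pattern over the 6 lungs was most like that of Trem2 were sought among the 14998 genes whose mean log2 CPM reached 1, by the root mean square difference of centred log2 CPM. The nearest were Clec4n (0.09), which encodes the lectin receptor Dectin-2, the gelatinase gene Mmp9 (0.13), Cd4 (0.21), the chemokine gene Ccl19 (0.26) and the phagosomal metal transporter gene Slc11a1 (0.28). Clec4n had 4657, 5360 and 4049 normalized counts in TNF-Tg lungs against 119, 150 and 185 in WT lungs. Among the 10 genes Gpnmb was nearest to Trem2 (0.37, rank 15), and Tyrobp was next (1.04, rank 209). Cd63 and Lpl were nearest to each other (0.23), and so were Spp1 and Cd9 (0.26) and Lgals3 and Tyrobp (0.32). The 6 lungs form 2 groups, so this measure is set largely by the difference between genotypes, and the likeness is given as a description. Within TNF-Tg lungs, replicate 2 was highest for Cd63 and Cd9 but lowest for Lpl and Spp1.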

How the data were processed

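Whole lungs of 3 TNF-Tg and 3 WT mice were compared, grouped by the sample titles. The authors trimmed single-end reads of stranded poly(A) libraries with Trimmomatic, mapped them to GRCm38 (GRCm38.p5 in the submitters' processing notes) with STAR 2.5.2b, counted them with featureCounts per those notes, and deposited raw counts per gene symbol without normalization. The strand setting and the annotation used for counting are not given in the sources used here. All 6 columns were matched to mice by genotype and number.

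Counts were filtered (filterByExpr), TMM normalized and tested with edgeR 4.0.16 (R 4.3.3; quasi-likelihood test, genotype as the only term, Benjamini-Hochberg adjustment over all tested genes, threshold 0.05). Standard errors are the log2 fold change divided by the square root of F. Log2 CPM used a prior count of 2. The floor was set at 3 counts in every lung, which covers counting error only. Depth, 25396923 to 32529408 counts per lung, sets the value of this floor in CPM. Gene models and lengths came from GENCODE M21. Each program was first run on simulated data with known changes.

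Alternatives changed the tool (DESeq2 1.42.0 or limma-voom from limma 3.58.1), the scaling (DESeq2 size factors or total counts), the filter (none, or a minimum of 10 counts per lung), the dispersion (robust), the model (a block for replicate number) and the threshold (log2 fold change of at least 1), or left out 1 lung at a time. Leaving out replicate 1 of both genotypes was added after seeing the data. The genes, the lists and the markers were chosen with earlier results of these data known. The text names all 10 genes, in each list the called genes with the largest and smallest change and those whose role it describes, the 5 genes nearest to Trem2, and markers beside the results they move with. The mice are separate animals. Some genes of the lists are not reported here. RefSeq promoter windows were searched for 5 motifs, whose letters were settled after the sequences had been seen. Matches are counted over 250 bases before and 50 bases after the start.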

Additional observations from a re-analysis of the deposited data

How the results depend on the processing

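The number of the 10 genes called was 8 under every alternative, with the same 8 genes, except without replicate 3 of WT, where 9 were called, Spp1 lower. Over the 150 values of single genes under these alternatives, 149 kept their direction and their side of the threshold, the exception being Spp1. With 1 lung left out the log2 fold change of Gpnmb lay between 5.26 and 5.72, that of Trem2 between 4.73 and 5.10 and that of Fabp5 between 2.02 and 2.59, and the ratio of the summed counts between 4.27 and 4.62. Of the companion genes, 53 to 60 were called against 57, and 41 with a log2 fold change of at least 1. In the fit with a replicate block, 8 of the 10 genes and 57 companion genes were called. Same-numbered mice are different animals, and the main fit did not pair them. The deviations of same-numbered lungs had correlations across genes of -0.15, -0.004 and -0.24. Whether same-numbered lungs share a batch was not tested. Without replicate 1 of WT, the level of Fabp5 relative to the macrophage markers was also higher in TNF-Tg than in WT lungs without overlap (difference 0.51). With any other single lung left out the difference lay between -0.08 and 0.30, with overlap. With 3 lungs per genotype no permutation test could pass 0.05.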

Other observations

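Markers of other macrophage states moved apart from each other. Of 7 alveolar macrophage markers 2 were higher, 4 were lower and 1 did not pass the test. Marco, a scavenger receptor, had 58276, 95434 and 49542 normalized counts in TNF-Tg lungs against 260, 338 and 885 in WT lungs (log2 fold change 7.10, standard error 0.58), and the chitinase-like Chil3 rose by 1.23. Siglecf (-1.27), Ear1 (-1.14), Krt79 (-1.09) and Car4 (-1.72), which capillary endothelium also makes, were lower, and Ear2 had a log2 fold change of -0.30. With Marco included, the summed level of this list was 64850 to 108185 normalized counts in TNF-Tg against 11784 to 14350 in WT lungs, although its median log2 fold change was -1.09.

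Over 6 osteoclast markers the summed level was 5119 to 7557 normalized counts in TNF-Tg against 850 to 1318 in WT lungs. Acp5, tartrate-resistant acid phosphatase, rose by 3.15 on the log2 scale (standard error 0.20) and the protease gene Ctsk by 1.16. The fusion receptor gene Dcstamp had 181, 293 and 187 counts in TNF-Tg and 19, 6 and 12 in WT lungs, and Ocstamp had 15, 28 and 13 against 4, 2 and 5. Both passed the filter on low counts only through the TNF-Tg lungs, and no fold is given. Oscar and Calcr were not tested for low counts, with 3, 7 and 4 against 8, 6 and 4 counts for Oscar and 1, 4 and 1 against 13, 4 and 5 for Calcr. Of 5 neutrophil markers 3 were lower, with sums of 562 to 1251 against 1669 to 2899.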
